A study of Homo sapiens with 12 samples.

Results

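The Notch ligands JAG1, JAG2, DLL1 and DLL4, the receptors NOTCH1, NOTCH2 and NOTCH3, and the target genes HES1, HEY1 and NRARP were examined in the colon cancer line HT-29. They were chosen by gene symbol, and all 10 were found among the 25528 rows of the expression table. RNA-seq had been done on 12 libraries in 4 groups of 3, with the question of what a further push on the WNT pathway does to transcription. Cells of every group carried mutant APC, per the labels, and had been infected with lentivirus. The GFP group (control) and the CTNNB1 group overexpressed an open reading frame and were collected 2 days after infection. The shNT1 group (control hairpin) and the shAPC group (hairpin against APC) received 2 µM doxycycline to switch on the hairpin, and RNA was taken 1 day later. HT-29 is 1 line, so every library is from the same genetic background, and the labels do not say whether replicates were separate cultures. The p-values therefore measure only the spread between these libraries, which may be technical. CTNNB1 was compared with GFP and shAPC with shNT1, here called the CTNNB1 arm and the shAPC arm, which differ in vector, collection day and doxycycline.

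Notch is a receptor that signals between touching cells. A ligand of the Jagged or Delta-like type on 1 cell binds a Notch receptor on its neighbour, proteases release the receptor's intracellular part, and this part joins the DNA-binding protein RBPJ to switch on target genes. In the intestinal crypt Notch is known for holding progenitors in an absorptive fate, with HES1 repressing ATOH1, the regulator that starts secretory differentiation. WNT and Notch act together in the crypt, and JAG1 has been described as a target of beta-catenin in colorectal cancer.

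The promoter sequences of 3 members are shown as a description. HES1 and NRARP are both known Notch targets. HES1 rose in the CTNNB1 arm, NRARP passed the test in neither arm, and JAG1 fell in both. Whether promoter sequence bears on these changes was not tested. RefSeq promoters (GRCh38.p14) were examined for 8 of the 10 members, all but DLL1 and HEY1. Each line is the 250 bases before the gene start, 5′ to 3′ on the gene's strand, with matches to the core of the RBPJ motif, TGGGAA on either strand, in capitals. The windows are HES1 at chr3:194135898-194136147 on the plus strand, NRARP at chr9:137302272-137302521 on the minus strand and JAG1 at chr20:10674000-10674249 on the minus strand.
HES1: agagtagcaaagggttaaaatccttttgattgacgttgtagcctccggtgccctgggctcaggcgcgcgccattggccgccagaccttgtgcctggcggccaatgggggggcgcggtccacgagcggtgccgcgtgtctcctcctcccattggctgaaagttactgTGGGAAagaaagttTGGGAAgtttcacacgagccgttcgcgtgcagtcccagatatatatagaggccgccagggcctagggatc
NRARP: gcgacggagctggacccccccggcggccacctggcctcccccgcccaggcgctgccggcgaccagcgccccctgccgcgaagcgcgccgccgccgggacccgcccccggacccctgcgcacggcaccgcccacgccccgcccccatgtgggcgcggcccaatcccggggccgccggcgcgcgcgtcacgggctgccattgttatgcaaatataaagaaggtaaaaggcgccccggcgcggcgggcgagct
JAG1: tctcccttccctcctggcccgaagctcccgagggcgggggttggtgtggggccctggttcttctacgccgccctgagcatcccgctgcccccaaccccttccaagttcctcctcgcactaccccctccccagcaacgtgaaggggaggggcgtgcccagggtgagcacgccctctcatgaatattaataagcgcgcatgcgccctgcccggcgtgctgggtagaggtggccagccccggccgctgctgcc
The HES1 window held 2 RBPJ matches, which began 84 and 70 bases before the gene start. Of 35116 promoter windows of this length, 20.8% held at least 1 such match and 2.9% held 2 or more. The windows of NRARP, JAG1, JAG2, DLL4, NOTCH1, NOTCH2 and NOTCH3 held none. G and C bases made up 68.4% to 81.6% of these windows, against 59.2% for HES1 and a median of 58% over all windows. The shares over all windows were not matched for base composition. HES1 also held 3 matches to the N box CACNAG, the kind of site that HES proteins bind (both strands searched; 32% of all windows held at least 1). No match overlapped another. A core of the TCF/LEF motif, CTTTGA on either strand, was in none of the 8 windows and in 11.2% of all windows. These are matches of letters in a short window, not sites shown to be bound.

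Expression was given as TPM, which is scaled for transcript length and for the total of each library. Such values hold no information on sequencing depth, and depth is therefore unknown here. Between 14756 and 16186 genes had a TPM above 0. Pearson correlations within groups ranged from 0.9912 to 0.9974 over 11741 genes, and shNT1 replicate 3 had both the fewest genes and the lowest mean correlation with its group (0.9924). The level of APC was 16.4 ± 0.8 TPM with shNT1 against 5.99 ± 0.56 TPM with shAPC, and that of CTNNB1 was 146 ± 2.9 TPM with GFP against 160 ± 4.2 TPM with CTNNB1 (mean ± SD of 3 libraries). The change of CTNNB1 was 0.13 on the log2 scale and did not pass the test (limma adjusted p = 0.059). It passed under quantile normalization (adjusted p = 0.048) and, at the threshold, without CTNNB1 replicate 1. AXIN2, a WNT feedback gene, rose by 1.04 and 1.59 in the CTNNB1 and shAPC arms (limma adjusted p = 3e-06 and 3.5e-07). Of 9 colon epithelial markers, 7 averaged well above 1 TPM in every group, with a summed level of 8902 to 12385 TPM per library. CDX1 and CDX2, which define intestinal epithelium, stayed under 1 TPM in every library. All 6 fibroblast markers and all 4 endothelial markers averaged under 1 TPM in every group, as did 5 of 6 leukocyte markers, the sixth being CD14 at up to 2.56 TPM.

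The members spanned a wide range of abundance. HES1 and NRARP led in every group, followed by JAG1 and NOTCH2, then NOTCH1, JAG2 and DLL4, while HEY1, DLL1 and NOTCH3 stayed under 1 TPM in all 12 libraries. In GFP, NRARP (45.5 TPM) stood above HES1 (42.2 TPM) with overlapping libraries, and JAG1 stood above NOTCH2. In the other 3 groups HES1 stood above NRARP and NOTCH2 above JAG1, and in each of these pairs the libraries did not overlap. From NOTCH1 through JAG2 and DLL4 down to HEY1 the neighbours did not overlap in any group. At the bottom, DLL1 and NOTCH3 could not be ordered in any group, nor HEY1 and DLL1 in shNT1.

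**Figure D1:**
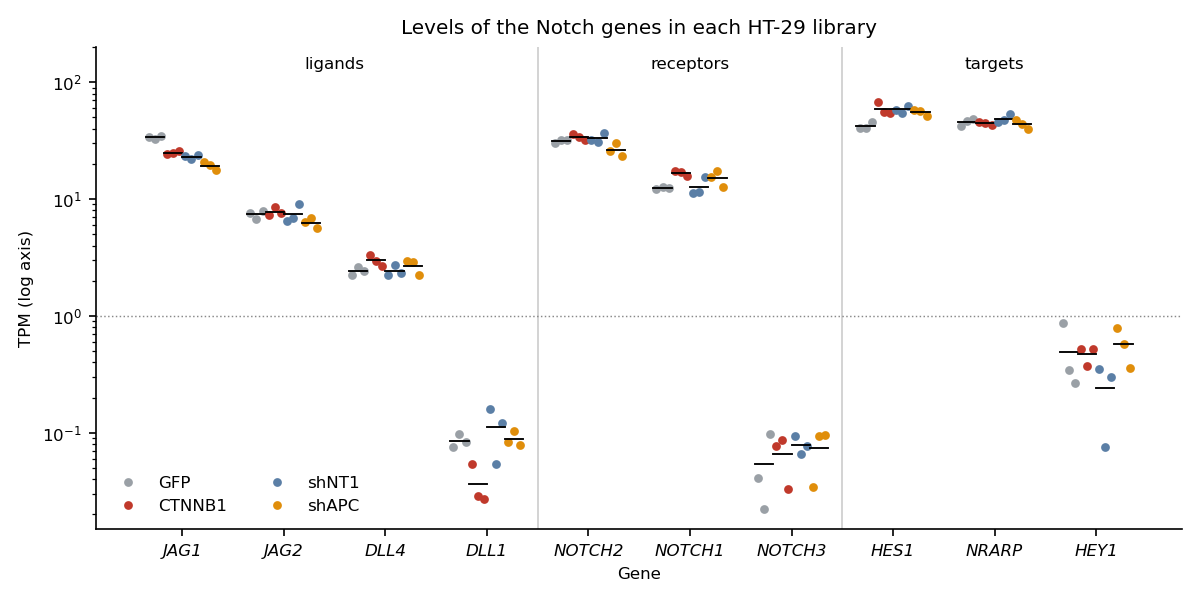
Each point is the TPM of 1 gene in 1 library on a log axis, with the group mean as a black line and a dotted line at 1 TPM, the minimum mean for testing. HES1 is lowest in the 3 GFP libraries (40.5 to 45.2 TPM), JAG1 is highest there (32.6 to 34.9 TPM), and HEY1, DLL1 and NOTCH3 lie under 1 TPM in every library.

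In the CTNNB1 arm 7 of the 10 members were abundant enough to be tested (a mean of at least 1 TPM over the 6 libraries), and 3 of them changed. NOTCH1 and HES1 were higher and JAG1 was lower with CTNNB1 than with GFP. The threshold for a call was an adjusted p under 0.05 (limma, Benjamini-Hochberg), and 23.5% of the 11624 genes tested were called in this arm, 16.3% higher and 7.16% lower. In the shAPC arm the same 7 members were tested and 2 were called, JAG1 and NOTCH2, both lower. There 22.1% of 11834 genes were called, 7.24% higher and 14.9% lower. The median log2 fold change of the tested members was 0.11 in the CTNNB1 arm and -0.14 in the shAPC arm, beside 0.06 and -0.04 over all genes tested. Fold changes are differences of log2(TPM + 1), which understates the change of weakly expressed genes. In bulk RNA fewer cells with a transcript and less of it per cell cannot be told apart.

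**Figure D2:**
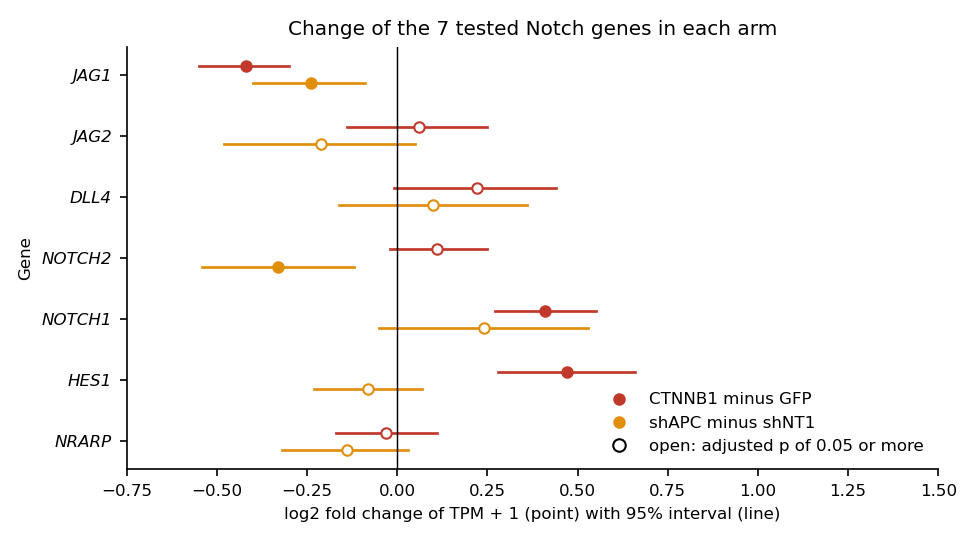
Points are log2 fold changes of TPM + 1 and lines their 95% intervals, in red for CTNNB1 minus GFP and in orange for shAPC minus shNT1, with filled points for an adjusted p under 0.05. JAG1 lies below 0 in both arms (-0.42 and -0.24), while HES1 lies at 0.47 in the CTNNB1 arm and at -0.08 in the shAPC arm.

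Among the ligands, JAG1 (ENSG00000101384, chr20:10637684-10673999, GRCh38.p14) was by far the most abundant. It read 34.1, 32.6 and 34.9 TPM in the GFP libraries and 24.2, 24.9 and 25.9 TPM in the CTNNB1 libraries. All 3 CTNNB1 libraries lay below all 3 GFP libraries, a separation that 43.2% of the genes tested in this arm showed in either direction. The mean fell by 26.1%, a change of -0.42 on the log2 scale (SE 0.056, limma adjusted p = 0.00066). In the shAPC arm JAG1 read 23.3, 22 and 23.6 TPM with shNT1 and 20.6, 19.6 and 17.7 TPM with shAPC. The groups again did not overlap, as for 40.9% of the genes tested in that arm. The change was -0.24 on the log2 scale (SE 0.07, limma adjusted p = 0.033). This call was lost without shAPC replicate 2 (-0.26, adjusted p = 0.074), shAPC replicate 3 (-0.18, 0.12), shNT1 replicate 1 (-0.23, 0.093) or shNT1 replicate 3 (-0.22, 0.063), and also with no filter on low genes (0.069), over a range of 0.01 to 0.12 for all alternatives. The 4 groups followed one another from GFP through CTNNB1 and shNT1 to shAPC with no overlap between neighbours, so the GFP libraries held the highest JAG1 of the series. In the authors' deposited tables JAG1 had a log2 fold change of -0.51 (adjusted p = 0.0029) in the CTNNB1 arm and -0.21 (adjusted p = 0.043) in the shAPC arm.

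JAG2, the second Jagged ligand, read 7.67, 6.78 and 7.9 TPM in GFP and 7.24, 8.63 and 7.54 TPM in the CTNNB1 group. With shNT1 it read 6.45, 6.87 and 9.16 TPM and with shAPC 6.36, 6.82 and 5.66 TPM. Groups overlapped in both arms and neither change passed the test: 0.06 in the CTNNB1 arm (95% interval -0.14 to 0.25) and -0.21 in the shAPC arm (-0.48 to 0.05).

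DLL4, a Delta-like ligand best known from blood vessel growth and also expressed in intestinal crypts, read 2.22, 2.63 and 2.43 TPM in GFP and 3.32, 2.98 and 2.68 TPM in the CTNNB1 group. The CTNNB1 libraries all lay above the GFP libraries, but the change of 0.22 did not pass (95% interval -0.01 to 0.44, limma adjusted p = 0.14). In the shAPC arm DLL4 read 2.25, 2.72 and 2.34 TPM against 2.94, 2.9 and 2.25 TPM, with overlap and a change of 0.1 (95% interval -0.16 to 0.36). DLL1, the Delta-like ligand of secretory progenitors, was too low to be tested and ranged from 0.027 to 0.161 TPM. Its mean was 0.0856 TPM with GFP and 0.0366 TPM with CTNNB1, with no overlap, and 0.112 and 0.0885 TPM in shNT1 and shAPC. Without the filter the change in the CTNNB1 arm was -0.07 on the log2(TPM + 1) scale (limma adjusted p = 0.12), while the authors' deposited table gave -1.24 (adjusted p = 0.034).

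As a share of the summed TPM of the 4 ligands, JAG1 made up 77.4%, 77.4% and 77% in the GFP libraries and 69.5%, 68.2% and 71.7% in the CTNNB1 libraries. In shNT1 it made up 72.4%, 69.5% and 67%, and in shAPC 68.7%, 66.6% and 68.9%. Shares of this kind do not depend on the factor by which a library is scaled. The GFP libraries stood apart from the other 9, whereas shNT1 and shAPC overlapped. The ligand sum averaged 43.8 ± 1.6 TPM in GFP, 35.9 ± 0.91 in CTNNB1, 33 ± 1.9 in shNT1 and 28.3 ± 2.3 in shAPC (SD, n = 3 each).

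The receptor NOTCH1 (ENSG00000148400, chr9:136494433-136546048) read 12.3, 12.6 and 12.4 TPM in GFP and 17.4, 17.2 and 15.9 TPM in the CTNNB1 group. The groups did not overlap. The rise was 0.41 on the log2 scale (SE 0.063, limma adjusted p = 0.0016), and it was called under every alternative run for this arm. In the shAPC arm NOTCH1 read 11.2, 11.5 and 15.5 TPM with shNT1 and 15.4, 17.3 and 12.7 TPM with shAPC. The third shNT1 library lay within the shAPC range, and the change of 0.24 did not pass (95% interval -0.05 to 0.53, limma adjusted p = 0.22). Without shNT1 replicate 3, the library with the fewest genes above 0, it was 0.38 (adjusted p = 0.029, against 0.14 to 0.54 under the other alternatives). The difference between the arms was 0.17 (CTNNB1 arm minus shAPC arm, 95% interval -0.17 to 0.51, limma adjusted p = 0.48).

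NOTCH2 (ENSG00000134250, chr1:119911553-120069662) was the more abundant receptor. It read 30.1, 32.2 and 32 TPM in GFP and 35.9, 34.2 and 32.1 TPM in the CTNNB1 group, which overlapped, with a change of 0.11 that did not pass (95% interval -0.02 to 0.25). In the shAPC arm it went from 32.3, 30.8 and 36.7 TPM to 25.8, 29.9 and 23.3 TPM. All 3 shAPC libraries lay below the shNT1 libraries, and the change was -0.33 (SE 0.093, limma adjusted p = 0.031). The call was lost without shAPC replicate 1 (-0.32, adjusted p = 0.096), shAPC replicate 3 (-0.25, 0.11) or shNT1 replicate 3 (-0.26, 0.066). It was also lost with no filter (0.1), no variance trend (0.059) or quantile normalization (0.063), over a range of 0.011 to 0.11 for all alternatives. In the authors' deposited table it was -0.3 with an adjusted p of 0.15. NOTCH2 shares near-identical sequence with the NOTCH2NL genes, and how reads common to both were assigned is not given in the sources used here. NOTCH2NL itself stood at 3.57 ± 0.32 TPM with shNT1 and at 2.88 ± 0.38 TPM with shAPC (mean ± SD of 3 libraries).

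The NOTCH2 share of the receptor transcripts was lower in the perturbed group of both arms. The receptor called was NOTCH1, higher, in the CTNNB1 arm and NOTCH2, lower, in the shAPC arm. NOTCH2 made up 70.9%, 71.9% and 71.9% of the summed TPM of NOTCH1, NOTCH2 and NOTCH3 in GFP and 67.2%, 66.4% and 66.9% in the CTNNB1 group. It made up 74.1%, 72.7% and 70.2% in shNT1 and 62.6%, 63.2% and 64.5% in shAPC. In each arm the perturbed libraries all lay below the control libraries, and in the shAPC arm this held with shNT1 replicate 3 included. Of single genes tested, 43.2% in the CTNNB1 arm and 40.9% in the shAPC arm showed such a separation in either direction. No test was made on these shares, since the genes in them had been chosen with earlier results known. NOTCH3, a receptor best known from vascular smooth muscle, was near the bottom of the table at 0.0225 to 0.0979 TPM and added little to the sum. Its groups overlapped in both arms.

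**Figure D3:**
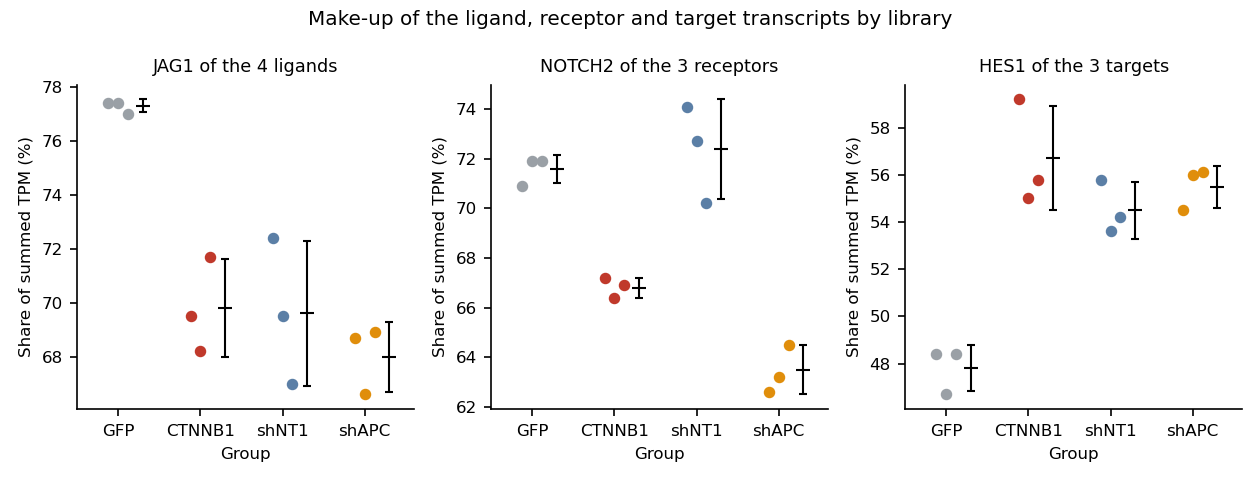
Points are single libraries and the bars at their right the mean ± SD of 3, as a percentage of the summed TPM of the 4 ligands (left), the 3 receptors (middle) and the 3 targets (right), on axes that do not start at 0. The NOTCH2 share is lower in both perturbed groups (66.8% and 63.5%) than in their controls (71.6% and 72.4%), while the GFP libraries stand apart for the shares of JAG1 and HES1.

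Of the targets, HES1 (ENSG00000114315, chr3:194136148-194138732), a transcriptional repressor of the bHLH family and the gene with 2 RBPJ matches in its promoter window, read 40.5, 40.8 and 45.2 TPM in GFP and 67.5, 55.1 and 54.6 TPM in the CTNNB1 group. The groups did not overlap, and the mean was 1.4 times as high with CTNNB1. The rise was 0.47 on the log2 scale (SE 0.084, limma adjusted p = 0.0037), and it was called under every alternative run, with 0.37 as the lowest value. In the shAPC arm HES1 read 57.5, 54.8 and 63 TPM against 57.9, 56.4 and 51.8 TPM. These groups overlapped and the change of -0.08 did not pass (95% interval -0.23 to 0.07, limma adjusted p = 0.46). The 95% interval of the shAPC arm thus lay below the rise measured in the CTNNB1 arm. The difference between the arms was 0.55 (SE 0.12, limma adjusted p = 0.0073), and it was called under every alternative run for it, among them median-ratio scaling (0.44) and quantile normalization (0.43). Of the 11741 genes tested for such a difference 16.1% were called, 13.3% positive and 2.76% negative, and the median over all genes was 0.11, or 0 under both scalings. By level, CTNNB1, shNT1 and shAPC overlapped from one to the next and the GFP libraries lay below all 9 others. The perturbation cannot be told apart here from vector, collection day and doxycycline, in which the arms also differ.

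NRARP (ENSG00000198435, chr9:137299631-137302271), a small ankyrin-repeat protein that Notch induces and that dampens Notch in turn, did not follow HES1. It read 42.3, 46.2 and 48 TPM in GFP and 46, 44.7 and 42.7 TPM in the CTNNB1 group, with a change of -0.03 (95% interval -0.17 to 0.11). It read 45.2, 47.5 and 53 TPM in shNT1 and 47.6, 43.8 and 40.1 TPM in shAPC, with a change of -0.14 (95% interval -0.32 to 0.03). Groups overlapped in both arms and neither change passed the test. Over the 12 libraries its highest value was 1.32 times the lowest, the narrowest span of the 10 members. HES1 made up 48.4%, 46.7% and 48.4% of the summed TPM of the 3 targets in GFP and between 53.6% and 59.2% in the other 9 libraries.

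HEY1, a relative of HES1 that acts as a partner repressor, was too low to be tested. Its libraries read 0.873, 0.344 and 0.266 TPM in GFP, 0.522, 0.375 and 0.523 TPM in CTNNB1, 0.349, 0.0752 and 0.298 TPM in shNT1, and 0.783, 0.572 and 0.361 TPM in shAPC. Every shAPC library lay above every shNT1 library, and the CTNNB1 arm overlapped. Without the filter the shAPC change was 0.34 on the log2(TPM + 1) scale (limma adjusted p = 0.14), and the authors' deposited table gave 1.4 (adjusted p = 0.23). At such levels the depth, which TPM does not keep, decides how firm a value is.

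The pathway around the members was described with 49 further genes, of which 35 were tested in each arm. In the CTNNB1 arm 7 rose and none fell by limma (among them MIB1, POGLUT1, APH1B, MAML1, MAML2 and HES6), and in the shAPC arm 1 rose (APH1B) and 3 fell (LFNG, POGLUT1 and FBXW7). MAML1, POGLUT1 and FBXW7 changed by less than 0.3 and are named after their values were seen. The 7 of 35 called in the CTNNB1 arm compare with 23.5% of all genes, and the 4 of 35 in the shAPC arm with 22.1%. The call of FBXW7 was lost without shAPC replicates 2 or 3 or shNT1 replicates 1 or 3 (adjusted p = 0.11, 0.12, 0.076 and 0.092), and with no filter (0.085). Their median log2 fold change was 0.11 and -0.04, beside 0.06 and -0.04 over all genes.

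Of the genes for ligand endocytosis and receptor cleavage, APH1B, a subunit of gamma-secretase, rose in both arms. With CTNNB1 it reached 2.74 ± 0.11 TPM, against 1.34 ± 0.089 TPM with GFP (0.67, SE 0.095, limma adjusted p = 0.00095). With shAPC it reached 4.59 ± 0.24 TPM, against 2.89 ± 0.26 TPM with shNT1 (0.52, SE 0.095, limma adjusted p = 0.0038). Its far more abundant paralog APH1A averaged 136 to 152 TPM and was called in neither arm. MIB1, the ubiquitin ligase that lets ligands be internalised, rose with CTNNB1, to 29.6 ± 4.2 TPM against 23.2 ± 0.2 TPM with GFP (0.33, limma adjusted p = 0.023). CTNNB1 replicate 1 held 34.5 TPM and its other 2 replicates 27.1 and 27.3 TPM. The MIB1 call was lost without GFP replicate 1 (adjusted p = 0.065), replicate 2 (0.075) or replicate 3 (0.074) and with no filter (0.071), and the change was 0.22 without CTNNB1 replicate 1 (0.0072).

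In the nuclear complex, the coactivator MAML2 rose from 4.92 ± 0.34 to 7.45 ± 1.3 TPM with CTNNB1 (0.5, SE 0.11, limma adjusted p = 0.0097). Its shAPC change of 0.16 was not called. RBPJ, the DNA-binding partner of all Notch receptors, changed by 0.15 in the CTNNB1 arm (95% interval 0.03 to 0.26, limma adjusted p = 0.075) and by -0.02 in the shAPC arm, and was called in neither. HES6, a HES family member that counters HES1, rose from 4.16 ± 0.69 to 5.75 ± 0.88 TPM with CTNNB1, with overlapping libraries (0.39, limma adjusted p = 0.049). That call was lost without GFP replicate 1 (adjusted p = 0.13), GFP replicate 2 (0.17), CTNNB1 replicate 1 (0.084) or CTNNB1 replicate 2 (0.16) and under median-ratio scaling (0.081), quantile normalization (0.12), no filter (0.13), no variance trend (0.062) or a pseudocount of 0.1 (0.05, at the threshold), over a range of 0.016 to 0.17 for all alternatives. With shAPC the HES6 libraries all lay above those of shNT1, and the change of 0.28 missed the threshold (limma adjusted p = 0.053) but passed under median-ratio scaling (0.036), without a variance trend (0.049) or with the stricter filter of 5 TPM (0.042).

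Among the enzymes that glycosylate the receptors, LFNG, the Fringe enzyme that shifts receptors from Jagged towards Delta-like ligands, fell from 41.3 ± 1.3 to 32.1 ± 2.9 TPM with shAPC (-0.36, SE 0.07, limma adjusted p = 0.0058) and changed by 0.02 with CTNNB1 (95% interval -0.14 to 0.17). POGLUT1, which adds glucose to the receptors, was picked out after its values had been seen because it was called in opposite directions. It rose from 19.4 ± 0.18 to 23.6 ± 0.17 TPM with CTNNB1 (0.27, limma adjusted p = 0.0061) and fell from 23 ± 0.92 to 19 ± 0.7 TPM with shAPC (-0.26, adjusted p = 0.014; SD, n = 3 each). The shAPC call of POGLUT1 was lost without shAPC replicate 3 (-0.23, adjusted p = 0.057) or shNT1 replicate 2 (-0.24, 0.058). The difference between its arms was 0.53 (SE 0.074, limma adjusted p = 0.00047).

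**Figure D4:**
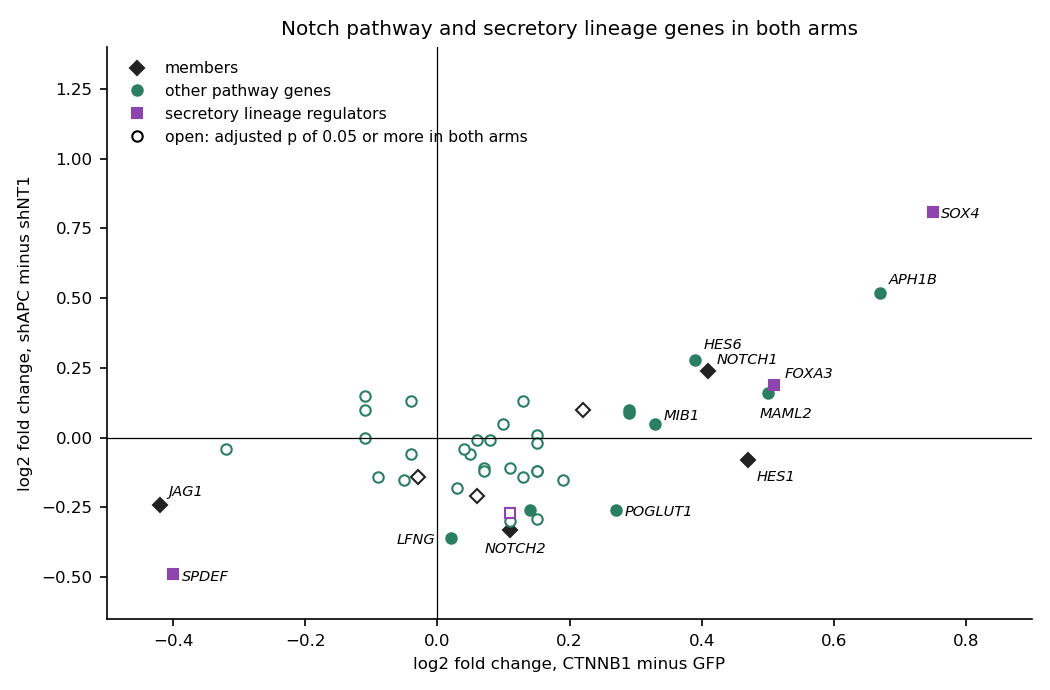
Each mark is a tested gene, placed by its log2 fold change in the CTNNB1 arm (horizontal) and the shAPC arm (vertical), as diamonds for the members, circles for other pathway genes and squares for secretory lineage regulators, filled where called in at least 1 arm. SOX4 (0.75 and 0.81) and APH1B (0.67 and 0.52) lie high in both arms, JAG1 and SPDEF low in both, and HES1 and POGLUT1 lie right of 0 and below it.

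The secretory lineage regulators were read beside HES1, as genes of the fate that Notch is known to restrain. ATOH1, which HES1 represses in the crypt, was low and called in neither arm: it averaged 1.56 ± 0.48 TPM in GFP, 1.73 ± 0.058 in CTNNB1, 1.9 ± 0.42 in shNT1 and 1.41 ± 0.34 in shAPC (SD, n = 3 each). Its change was 0.11 in the CTNNB1 arm (95% interval -0.21 to 0.43) and -0.27 in the shAPC arm (-0.6 to 0.07). SPDEF, which drives goblet cell maturation, fell in both arms, from 13.9 ± 0.4 to 10.4 ± 1.1 TPM (-0.4, limma adjusted p = 0.0066) and from 12.4 ± 1.2 to 8.51 ± 0.52 TPM (-0.49, adjusted p = 0.0029). SOX4 rose in both, from 91.1 ± 2.7 to 154 ± 8.9 TPM (0.75, limma adjusted p = 2.5e-05) and from 105 ± 6.8 to 185 ± 7.6 TPM (0.81, adjusted p = 1.9e-05). FOXA3 rose with CTNNB1, from 7.14 ± 0.1 to 10.6 ± 0.28 TPM (0.51, limma adjusted p = 0.00056). With shAPC it changed by 0.19 (adjusted p = 0.11), which passed under median-ratio scaling (0.028), under quantile normalization (0.025) and without shNT1 replicate 3 (0.26, 0.034). The other 4 regulators (GFI1, NEUROG3, NEUROD1 and INSM1) were too low to be tested, and OLFM4, a Notch-dependent stem cell gene, was listed at 0 in all libraries.

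To describe which genes had the most similar pattern, each member called in an arm was compared with 9438 genes (mean of at least 5 TPM) by Pearson r of log2(TPM + 1) over the 12 libraries, which fall into 4 groups and share their vectors and days within an arm. For HES1 the closest were GRHL2 (r = 0.987), FMNL2 (0.965) and MSH3 (0.965). GRHL2, an epithelial transcription factor, averaged 27.1 ± 0.54 TPM in GFP and 30.3 to 31.9 TPM in the other groups. For JAG1 they were the glycolytic enzyme genes ALDOA (0.986) and ENO1 (0.984) and the protease gene PITRM1 (0.984). ALDOA stepped down in the same order as JAG1, from 703 ± 7.9 TPM in GFP through 508 ± 48 and 464 ± 12 to 400 ± 21 TPM in shAPC (SD, n = 3 each). For NOTCH1 they were APOH (0.966), LIPG (0.964) and PAQR7 (0.959), and for NOTCH2 they were SPTBN1 (0.964), ATP8B1 (0.958) and EGFR (0.951). No member was among the 3 closest of another, a list too short beside 9438 genes to say how members move together. Between these members and the others with a mean of at least 5 TPM, r ranged from -0.678 (HES1 with JAG1) to 0.777 (NOTCH2 with JAG2).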

How the data were processed

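RNA-seq of 12 HT-29 libraries was used. The submitters' processing notes name STAR 2.7.3a, limma and hg38. The authors deposited TPM per gene. The authors also deposited limma tables with log2 fold changes, p-values and a log-odds score, and the score was not used. Quantification, filters and strandedness are not given in the sources used here. Among its rows, 27 carry a date in place of a symbol, and none of them is used by name. Each arm was fitted with limma 3.58.1 (R 4.3.3) on log2(TPM + 1), with a variance trend and a mean TPM of at least 1. A gene was called at a Benjamini-Hochberg adjusted p under 0.05 over all genes tested. The difference between arms was a contrast in a fit of all 12 libraries. The fits were first tested on simulated data, with a spread set for the simulation. Changes of 1.5-fold were recovered for 79% of changed genes in the CTNNB1 arm and 81.8% in the shAPC arm. For the difference between arms 29.3% were recovered. At 2-fold these shares were 99%, 100% and 85.9%. Smaller changes were not simulated. The members and lists were chosen with earlier results of these data known. All members are named, list genes where called in an arm with a log2 change of at least 0.3, and the 3 genes of highest correlation with a called member. Some genes of the lists are not reported here. Other choices tried were the pseudocount, filter, scaling, variance trend, replicate block, a shared fit and leaving out each library.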

Additional observations from a re-analysis of the deposited data

Results flagged for a closer look

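Each value here is a difference between the arms (CTNNB1 arm minus shAPC arm, log2) that passed the test of the difference itself. HES1 differed by 0.55 and NOTCH2 by 0.44 (SE 0.12, limma adjusted p = 0.024). The NOTCH2 difference lost its call without GFP replicate 1 (0.41, adjusted p = 0.061), shAPC replicate 3 (0.36, 0.063) or shNT1 replicate 3 (0.37, 0.053), and was 0.33 under both median-ratio scaling and quantile normalization (0.059 and 0.068), over a range of 0.0077 to 0.068. POGLUT1 differed by 0.53 and was called under every alternative run. In all, 4 of the 5 tested genes for receptor glycosylation were called in the positive direction: POGLUT1, EOGT (0.44), LFNG (0.37) and POFUT1 (0.27). Of all genes tested 13.3% were. This role was picked out after the differences had been seen. Over the 35 tested pathway genes of all roles, 6 were called positive and 1 negative. POFUT1, EOGT and LFNG were not called under median-ratio scaling (0.16, 0.34 and 0.26) or quantile normalization (0.17, 0.34 and 0.26).

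FBXW7, a ubiquitin ligase subunit that marks the intracellular part of Notch for degradation, differed by 0.4, DTX4 by 0.27, the secretory regulator FOXA3 by 0.31 and the gamma-secretase subunit PSENEN by -0.26. With no filter on low genes the differences of NOTCH2 (adjusted p = 0.06), POFUT1 (0.055), EOGT (0.066), LFNG (0.053), FOXA3 (0.066) and PSENEN (0.058) were not called, and with no variance trend those of POFUT1 (0.057) and PSENEN (0.061) were not. DTX4 and FOXA3 were not called under median-ratio scaling (0.16 and 0.21) or quantile normalization (0.15 and 0.14). All of these and the 3 glycosylation genes other than POGLUT1 lost their calls without single libraries. For FBXW7 these were GFP replicate 2, shAPC replicates 2 and 3 and shNT1 replicate 3 (0.35 to 0.44 over the libraries left out, adjusted p up to 0.068). LFNG lost its call without CTNNB1 replicate 2, GFP replicates 1 and 2, shAPC replicate 3 or shNT1 replicate 3 (0.32 to 0.44, up to 0.067). EOGT lost it without CTNNB1 replicate 1, any GFP library, shAPC replicate 3 or shNT1 replicate 3 (0.34 to 0.51, up to 0.067). POFUT1 lost it without any GFP library, CTNNB1 replicate 2, shAPC replicate 3 or shNT1 replicates 2 or 3 (0.22 to 0.32, up to 0.094). PSENEN lost it without any GFP library, CTNNB1 replicate 3, shAPC replicate 2 or shNT1 replicates 1 or 2 (-0.31 to -0.22, up to 0.089). DTX4 lost it without any GFP or shNT1 library, CTNNB1 replicate 2 or shAPC replicates 2 or 3 (0.23 to 0.33, up to 0.089). FOXA3 lost it without any GFP library, or replicate 2 or 3 of any other group (0.25 to 0.35, up to 0.1).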

How the results depend on the processing

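The 3 calls among the members in the CTNNB1 arm (NOTCH1, JAG1 and HES1) were made under all alternatives. Of the 2 calls in the shAPC arm, 0 were left with no filter, 1 (JAG1) with no variance trend and 1 (JAG1) under quantile normalization. Of the 2 differences between the arms, 1 (HES1) was left with no filter. With no filter more genes enter both the fit with its variance trend and the adjustment. The cause of the lost calls was not tested for any alternative. JAG1 differed between the arms by -0.29 under median-ratio scaling (adjusted p = 0.027) and by -0.27 under quantile normalization (0.038), against -0.18 (0.17) for TPM as deposited. Leaving out single libraries gave 1499 to 3190 called genes in the CTNNB1 arm, 1484 to 2252 in the shAPC arm and 995 to 2143 for the difference, with 0 to 2 members called in the shAPC arm and 1 to 2 for the difference. The share of higher calls was 69.5% in the CTNNB1 arm, 46.1% with median-ratio scaling and 52.9% after quantile normalization. It was 32.8%, 44.3% and 49.4% in the shAPC arm and 82.8%, 54.7% and 56.5% for the difference. Of 326 values of single members under alternatives, 303 kept their side of the threshold. In 4 of the 326 the sign was opposite, none of them called: JAG2 in the CTNNB1 arm (0.06) was -0.01 under median-ratio scaling, -0.05 under quantile normalization and -0.01 without CTNNB1 replicate 2, and NRARP there (-0.03) was 0.01 without GFP replicate 3.

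Replicate numbers are shared between groups, but the labels do not say what they stand for. Same-numbered libraries had correlations of their deviations of 0.22, 0.07 and 0.11 in the CTNNB1 arm and -0.15, -0.01 and -0.21 in the shAPC arm. Those of different number ranged from -0.18 to 0.07 in the CTNNB1 arm and from -0.12 to 0.2 in the shAPC arm. In the CTNNB1 arm replicates 1 and 3 thus correlated best with their own number. Same-numbered libraries were not taken as pairs in the main fits, and a replicate block was run as an alternative. GFP replicate 2 correlated equally (0.07) with CTNNB1 replicates 2 and 3, and no library of the shAPC arm correlated best with its own number. The replicate block gave 2895 called genes for CTNNB1 minus GFP, 1767 for shAPC minus shNT1 and 1145 for the difference. Of the members 3, 0 and 1 (HES1) were called with the replicate block. Calls lost with the replicate block were those of NOTCH2 (adjusted p = 0.057), JAG1 (0.071) and FBXW7 (0.079) in the shAPC arm and HES6 (0.069) in the CTNNB1 arm. Among the differences they were NOTCH2 (0.067), POFUT1 (0.079), EOGT (0.064), PSENEN (0.069), DTX4 (0.077) and FOXA3 (0.1).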

Other observations

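Other genes of the pathway differed widely in level. The ligands and receptors outside the members were nearly silent: NOTCH4 averaged at most 0.0219 TPM and DLL3 at most 0.0279 TPM in any group, and DLK1 was listed at 0 throughout. The Deltex genes DTX1 and DTX3 were also listed at 0, while DTX4 averaged 29.3 to 34.7 TPM. The receptor proteases were abundant, with ADAM10, the protease that makes the first ligand-induced cut, at 172 to 203 TPM and the gamma-secretase subunits APH1A and PSENEN at 131 to 152 TPM. ADAM10, APH1A, PSENEN and DTX4 were tested and called in neither arm with TPM as deposited, and the other genes of this paragraph were too low to be tested.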
